A study of Mus musculus with 2 samples.

Results

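Protogenin (Prtg, ENSMUSG00000036030) is 1 of the 21937 genes counted in dissociated E11.5 mouse embryos, and its transcripts were followed by annotated cell type and by suspension. The gene lies on chromosome 9 from position 72807274 to 72917307 of GRCm38.p6, on which no other RefSeq gene overlaps it, and the next gene downstream, Pygo1, starts 8338 bases beyond its end. Prtg was chosen because its level differed between founder and F1 suspensions, so all its levels below are a description, and none of them was tested. In all, 3041 Prtg UMIs (unique molecular identifiers, each standing for 1 captured transcript) were counted among 68972620 gene UMIs of 5678 typed cells.

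Protogenin is a single-pass transmembrane protein of the immunoglobulin superfamily. It belongs to the family of Dcc, the netrin receptor that steers axons, together with neogenin (Neo1), Igdcc3 and Igdcc4. It is known from the early neural tube and paraxial mesoderm, where it is linked to the timing of neurogenesis and to neural crest survival, and its level in the embryo declines as development proceeds. The secreted chaperone ERdj3, encoded by Dnajb11, has been described as one of its ligands.

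Cells came from transgenic embryos carrying EGFP under the ubiquitous CAG promoter, linked to a DNA barcode and inserted by the piggyBac transposase. F0_8 and F0_9 were founder embryos, 1 embryo each, that had developed from manipulated eggs. F1_1 was a single embryo of the F1 generation, and F1_mix combined cells of 2 other F1 embryos into an artificial mosaic. All 4 suspensions therefore carried the transgene, no embryo without it was included, and all were tagged with lipid-anchored oligos, pooled and captured as 1 library, so that generation, embryo and exact developmental stage cannot be told apart. Cells used per suspension numbered 1310 to 1599, with medians of 10880 to 13267 gene UMIs per cell, and 0 cell barcodes were shared between suspensions.

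Cell types are those annotated by the authors, 16 in number. In 12 of them, called deep here, cells were sequenced to a depth near or above that of the whole data set, whereas the 4 others (Foregut, Hepatocyte, Midgut and Endodermal Progenitor), called shallow, had a pooled median of 1138 gene UMIs per cell and 22.7% mitochondrial UMIs. Sets of 4 defining markers were highest in their own type among the deep types for the endothelial type, both red-cell types, Epithelial Cell, Myoblast/Cardiomyocyte, Mesodermal Progenitor, Ependymal Cell and Neuronal Progenitor. The chondrocyte set was higher in Gut Mesenchyme/Amniotic Mesoderm (8.78 UMIs per 10000) than in Chondrocyte (7.06), and the gut mesenchyme set was 1.98 in its own type against 2.08 in Ependymal Cell. In the endothelial type a macrophage set (C1qa, Csf1r, Cx3cr1 and Tyrobp) stood at 22.9, above its own set at 7.67. The ependymal set (Foxj1, Foxa2, Shh and Ttr) stood at 16.6 in Ependymal Cell, where the hepatocyte set, which shares Ttr with it, stood at 13.7, and 101 of the 137 cells of that type had neither a Foxa2 or Shh UMI nor 2 or more Ttr UMIs. Neuronal genes (Tubb3, Dcx, Stmn2 and Elavl3) stood at 75.0 UMIs per 10000 in Neuroectoderm/Glia against 56.9 in CNS Neuron, so the first of these types was led by the markers of the second. The sets of the 4 shallow types were each higher in a deep type, with the hepatocyte set at 0.0610 per 10000 in Hepatocyte, and all names are used below as the authors' labels.

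Prtg was a widespread transcript of low abundance, present in neural, mesodermal and epithelial types and close to absent from blood. The level was expressed as Prtg UMIs per 10000 gene UMIs summed over the cells of a type in a suspension. Among deep types the mean over the 4 suspensions was highest in Ependymal Cell (0.914 ± 0.0714, SD, n = 4) and Neuronal Progenitor (0.774 ± 0.266), and the first was above the second in 2 of 4 suspensions. Epithelial Cell (0.464 ± 0.149), Mesodermal Progenitor (0.456 ± 0.263), Gut Mesenchyme/Amniotic Mesoderm (0.407 ± 0.224), CNS Neuron (0.400 ± 0.269), Myoblast/Cardiomyocyte (0.356 ± 0.139) and Chondrocyte (0.346 ± 0.154) followed. Neighbours within this middle group differed by less than the SD of either. Neuroectoderm/Glia was lower (0.221 ± 0.170), below Chondrocyte in all 4 suspensions, and Neuronal Progenitor was above Epithelial Cell in all 4.

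Blood and endothelium gave the lowest levels among the deep types. Erythrocyte held 2 Prtg UMIs in 60 cells, both in F0_8, which gives 0.0129 per 10000 in a type that should lack the gene. Of those cells 3.33% had a Prtg UMI at a median depth of 24289 gene UMIs, against 26.4% of all cells at a median of 12072. Erythroblast held 29 UMIs (0.0670 per 10000), in 9 of 144 cells, and Hematoendothelial Progenitor/Endothelium 10 UMIs (0.0704 per 10000). By suspension, Erythroblast gave 0.0219 and 0.0555 in F0_8 and F0_9 and, in F1_1 and F1_mix, 0.106 and 0.180, from 3 to 14 UMIs, with both founders below both F1 suspensions, and the 2 Erythrocyte UMIs gave 0.0842 in F0_8. Endothelial levels ran from 0.0406 to 0.120. The founder levels of Neuroectoderm/Glia and the F0_8 levels of CNS Neuron and Myoblast/Cardiomyocyte, given below, did not exceed the highest of these values, whereas all other levels of the deep types outside blood and endothelium did.

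**Figure D1:**
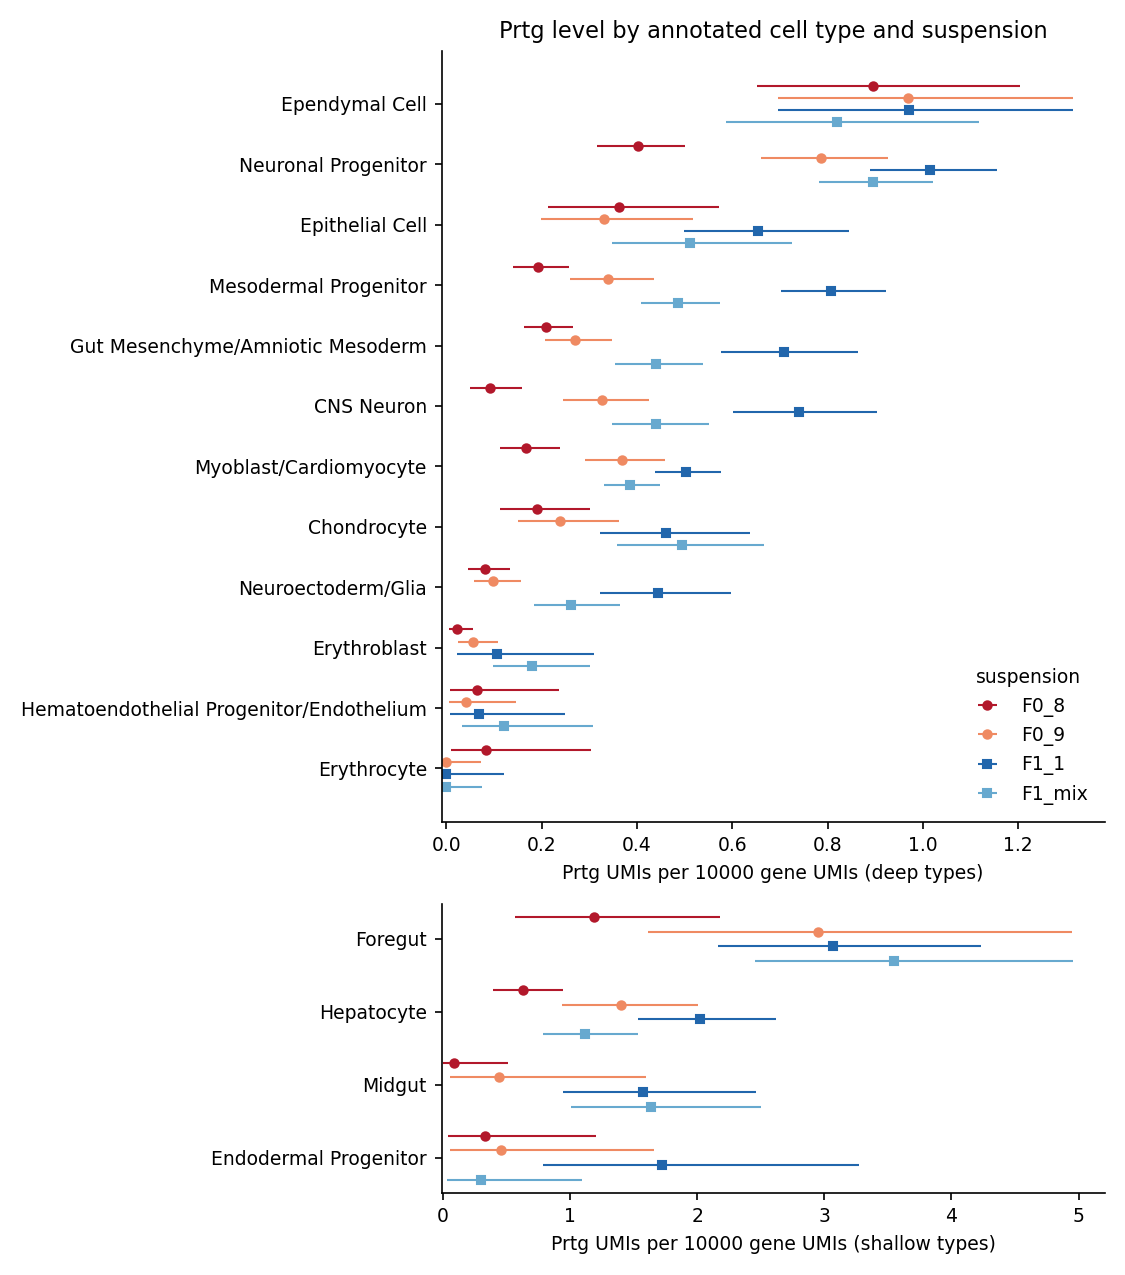
Prtg UMIs per 10000 gene UMIs (x axis, linear) by annotated cell type (y axis) and suspension, with exact Poisson 95% intervals as bars, circles for founders and squares for F1. The upper panel shows 12 deep types and the lower panel, on its own scale, 4 shallow types. Founder points lie left of F1 points in most types, and the 4 Ependymal Cell points lie together between 0.820 and 0.970.

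Founder suspensions held fewer Prtg transcripts than F1 suspensions in most cell types, with F0_8 the lowest. Summed over all cells, F0_8 held 372 Prtg UMIs, F0_9 held 551, F1_1 held 1154 and F1_mix held 964. The corresponding levels were 0.213, 0.343, 0.709 and 0.503 per 10000, so both founders lay below both F1 suspensions and F1_1 was the highest. With the 9 deep types of at least 20 cells per suspension weighted equally, the founder means were 0.288 (F0_8) and 0.414 (F0_9), and the F1 means 0.701 (F1_1) and 0.526 (F1_mix). The order of the suspensions was thus the same when the makeup of the suspensions was set aside.

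Type by type, both founders lay below both F1 suspensions in 10 of the 13 types with at least 20 cells in each suspension (8 of 9 deep and 2 of 4 shallow). Over all gene and type pairs tested, 19.8% showed the same arrangement. Because Prtg was chosen on this contrast, the count is a description of how widely the difference extended and no more. F0_8 was the lowest suspension in 10 of the 13 types and F1_1 the highest in 10. The ratio of the F1 mean to the founder mean had a median of 2.22 over the 9 deep types, with a range from 0.960 to 3.95. It depended on single suspensions in some types, and in CNS Neuron it went from 2.82 to 6.39 without F0_9 and to 1.81 without F0_8.

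In Neuronal Progenitor the level was 0.402 and 0.786 in F0_8 and F0_9, against 1.02 and 0.895 in F1_1 and F1_mix. Here F0_9 stood close to F1_mix while F0_8 stood apart from the other 3, and the F1 mean was 1.61 times the founder mean. In CNS Neuron the level was 0.0925 and 0.327 in the founders (F0_8, then F0_9) and 0.741 and 0.441 in F1_1 and F1_mix. The Poisson intervals of F0_9 (0.245 to 0.426) and F1_mix (0.348 to 0.551) overlapped, whereas those of F0_8 and F1_1 were clear of all others.

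Neuroectoderm/Glia, whose cells carried neuronal genes, gave the widest gap among deep types when all suspensions were used. Without F0_9 the ratio of F1 to founders was larger in CNS Neuron (6.39) than in Neuroectoderm/Glia (4.38). Its levels were 0.0806 and 0.0984 in F0_8 and F0_9 and, in F1_1 and F1_mix, 0.444 and 0.263, and the F1 mean was 3.95 times the founder mean. Both founder intervals ended below both F1 intervals, and both founder levels lay within the range of levels in Erythroblast. These values rest on 15, 17, 44 and 36 Prtg UMIs, found in 11, 14, 25 and 21 cells.

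Ependymal Cell was the deep type in which the groups overlapped. F0_8 gave 0.896, F0_9 gave 0.970, F1_1 gave 0.970 and F1_mix gave 0.820, from 40 to 44 UMIs in each suspension. The founder mean exceeded the F1 mean by 0.06 on the log2 scale.

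Mesodermal types showed the difference as well. In Mesodermal Progenitor the level was 0.192 and 0.340 in F0_8 and F0_9, against 0.807 and 0.487 in F1_1 and F1_mix. In Gut Mesenchyme/Amniotic Mesoderm it was 0.210 and 0.270 in the founders (F0_8, then F0_9) and 0.709 and 0.439 in F1_1 and F1_mix. In both types F1_1 was well above F1_mix, and the F1 mean was 2.43 and 2.39 times the founder mean, respectively. Chondrocyte gave 0.191 and 0.239 in F0_8 and F0_9 and, in F1_1 and F1_mix, 0.461 and 0.495. Myoblast/Cardiomyocyte gave 0.167 and 0.368 in F0_8 and F0_9, against 0.503 and 0.386 in F1_1 and F1_mix, where the interval of F0_9 overlapped both F1 intervals. Epithelial Cell gave 0.362 and 0.332 in the founders (F0_8, then F0_9) and 0.654 and 0.511 in F1_1 and F1_mix, from 18 to 59 UMIs. The intervals of both founders overlapped both F1 intervals in Epithelial Cell, that of F0_9 overlapped both in Chondrocyte, and those of F0_9 and F1_mix overlapped in Mesodermal Progenitor.

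The shallow types held 300 Prtg UMIs between them. Foregut gave the highest level of any type in every suspension, with 1.19 and 2.95 in F0_8 and F0_9 and, in F1_1 and F1_mix, 3.07 and 3.55, from 10 to 37 UMIs. Midgut gave 0.0915 and 0.443 in F0_8 and F0_9, against 1.57 and 1.63 in F1_1 and F1_mix, with 1 and 2 UMIs in the founders. Hepatocyte gave 0.628 and 1.40 in the founders (F0_8, then F0_9) and 2.02 and 1.12 in F1_1 and F1_mix, and Endodermal Progenitor 0.333, 0.460, 1.72 and 0.303 in the same order, so that the groups overlapped in both. Barcodes that belonged to no suspension and held 100 to 300 gene UMIs, which can hold free RNA and debris, gave 0.970 Prtg UMIs per 10000. The part of such RNA in the shallow types was not tested.

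At equal depth the share of cells with Prtg differed in the same order as the level in most types. Each cell was thinned to 5000 gene UMIs, which left out 438 and 255 founder cells (F0_8 and F0_9) and 372 and 320 F1 cells (F1_1 and F1_mix), nearly all of them of shallow types. Over all remaining cells, 8.10% and 13.2% in F0_8 and F0_9 and, in F1_1 and F1_mix, 24.6% and 17.5% had 1 or more Prtg UMI. Without thinning the shares were 13.3%, 22.0%, 40.5% and 32.2%. Erythrocyte held 0 of 60 cells with Prtg after thinning, with a Clopper-Pearson upper limit of 5.96% on the share of cells with a UMI, which is no limit on the share of cells that express the gene. In Neuronal Progenitor the thinned share was 10.6% and 21.6% in F0_8 and F0_9, against 36.5% and 28.3% in F1_1 and F1_mix, and in Neuroectoderm/Glia it was 3.14%, 4.79%, 18.2% and 11.2% in that order. By this measure both founders lay below both F1 suspensions in 7 of 9 deep types, with Myoblast/Cardiomyocyte joining Ependymal Cell among those that overlapped.

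**Figure D2:**
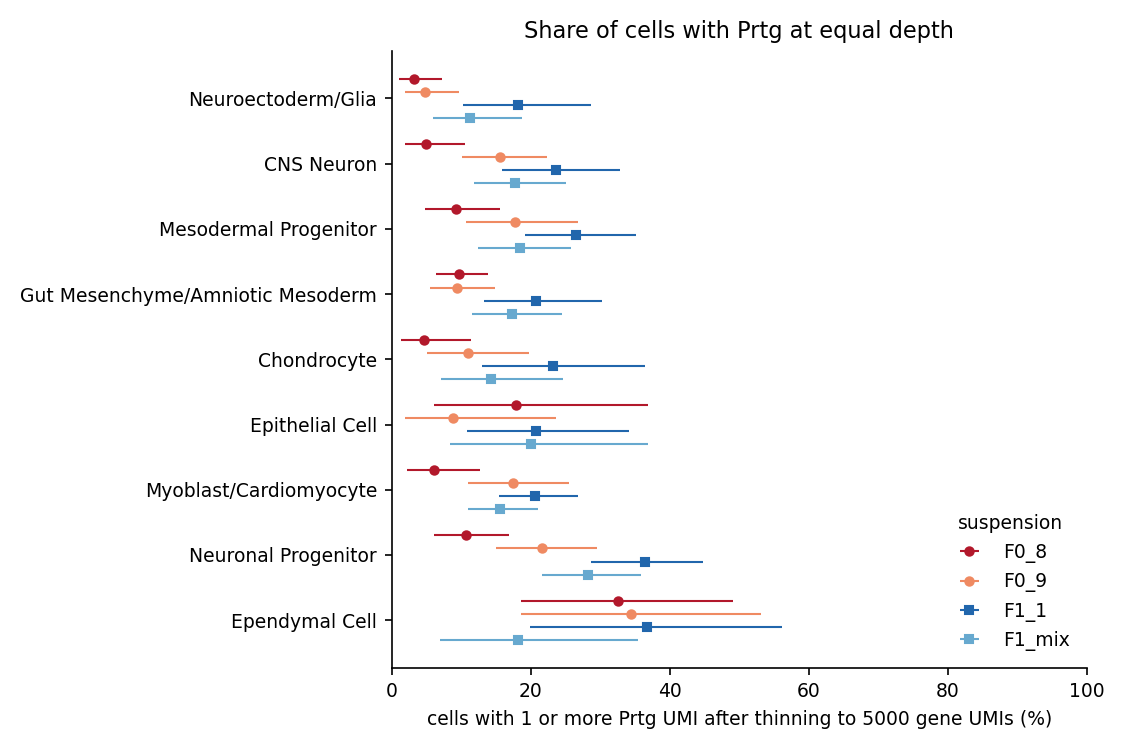
Share of cells with 1 or more Prtg UMI after thinning each cell to 5000 gene UMIs (x axis, percent) in 9 deep types, by suspension, with exact Clopper-Pearson 95% intervals that cover counting error only. In Neuronal Progenitor the shares run from 10.6% in F0_8 to 36.5% in F1_1, and in Ependymal Cell the intervals of all 4 suspensions overlap.

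The number of Prtg UMIs per cell moved as well, though these counts were not thinned to equal depth. Over all Neuronal Progenitor cells the median depth was 12200 and 12904 gene UMIs in F0_8 and F0_9, against 14675 and 14116 in F1_1 and F1_mix. Founder cells of Mesodermal Progenitor were shallower too. Among Neuronal Progenitor cells of more than 5000 gene UMIs, the share with 3 or more Prtg UMIs was 7.09% and 14.9% in F0_8 and F0_9, against 17.6% and 17.5% in F1_1 and F1_mix. Cells without any Prtg UMI made up 74.5%, 61.9%, 38.5% and 48.2% in that order, and single cells held up to 20 Prtg UMIs. In Mesodermal Progenitor cells, 4.62% and 5.21% in the founders (F0_8, then F0_9) and 24.2% and 9.93% in F1_1 and F1_mix had 3 or more.

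Neuronal Progenitor cells were split by a UMI of any Hox gene, the transcription factors that mark the hindbrain and spinal cord within the neural tube. Among cells with a Hox UMI, the Prtg level was 0.479 and 0.786 in F0_8 and F0_9 and, in F1_1 and F1_mix, 1.16 and 1.05, so that both founders lay below both F1 suspensions, with overlapping Poisson intervals for F0_9 (upper limit 0.970) and F1_mix (lower limit 0.879). Among cells without one it was 0.347 and 0.784 in F0_8 and F0_9, against 0.816 and 0.736 in F1_1 and F1_mix, so that F0_8 was low and the other 3 lay together. F0_8 held fewer cells with Hox than the others, 38.1% of its Neuronal Progenitor cells against 58.2%, 58.0% and 49.4%. The 17 to 21 cells per suspension with exactly 1 Hox UMI, a subset of the first stratum, gave 0.770 and 0.336 in F0_8 and F0_9 and, in F1_1 and F1_mix, 0.710 and 0.815, which overlap. The difference between the 2 strata was not tested. In CNS Neuron and in Neuroectoderm/Glia both founders lay below both F1 suspensions in either stratum. This split by Hox alone was chosen after the data had been seen.

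Over the 4 neural types together, Prtg was higher in cells with Sox2 transcripts than in cells with neuronal genes and no Sox2 UMI in each suspension, and this order did not hold within every type. Cells with Sox2, the transcription factor of neural progenitors, gave 0.416 and 0.728 in the founders (F0_8, then F0_9) and 1.01 and 0.854 in F1_1 and F1_mix. The others gave 0.118, 0.163, 0.579 and 0.346 in that order. Both founders lay below both F1 suspensions in either class. Cells with Sox2 made up 45.3% to 56.6% of the neural cells of a suspension, but 90.5% to 97.3% of Neuronal Progenitor cells and 6.33% to 11.6% of Neuroectoderm/Glia cells, so the pooled order cannot be told apart from the makeup by type. Within CNS Neuron, cells with Sox2 were higher in 3 suspensions and lower in F0_8 (0.0305 against 0.111). In Neuroectoderm/Glia the 5 to 19 cells with Sox2 per suspension held 0 to 2 Prtg UMIs and were lower than the others in F0_9, F1_1 and F1_mix. The order was also turned in Neuronal Progenitor of F1_1 (0.976 with Sox2, 2.65 in 4 cells without) and in Ependymal Cell of F1_mix (0.818 with Sox2, 1.55 in 7 cells without).

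Ependymal Cell, whose pooled levels overlapped, contained 2 opposite arrangements. Its cells with Hox gave 0.261 and 0.319 in F0_8 and F0_9 and, in F1_1 and F1_mix, 0.821 and 0.678, with both founders below. Its cells without Hox gave 1.46 and 1.91 in F0_8 and F0_9, against 1.26 and 1.20 in F1_1 and F1_mix, with both founders above. In each stratum the Poisson intervals of all 4 suspensions overlapped. These strata hold 10 to 23 cells per suspension, and the difference between them was not tested.

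**Figure D3:**
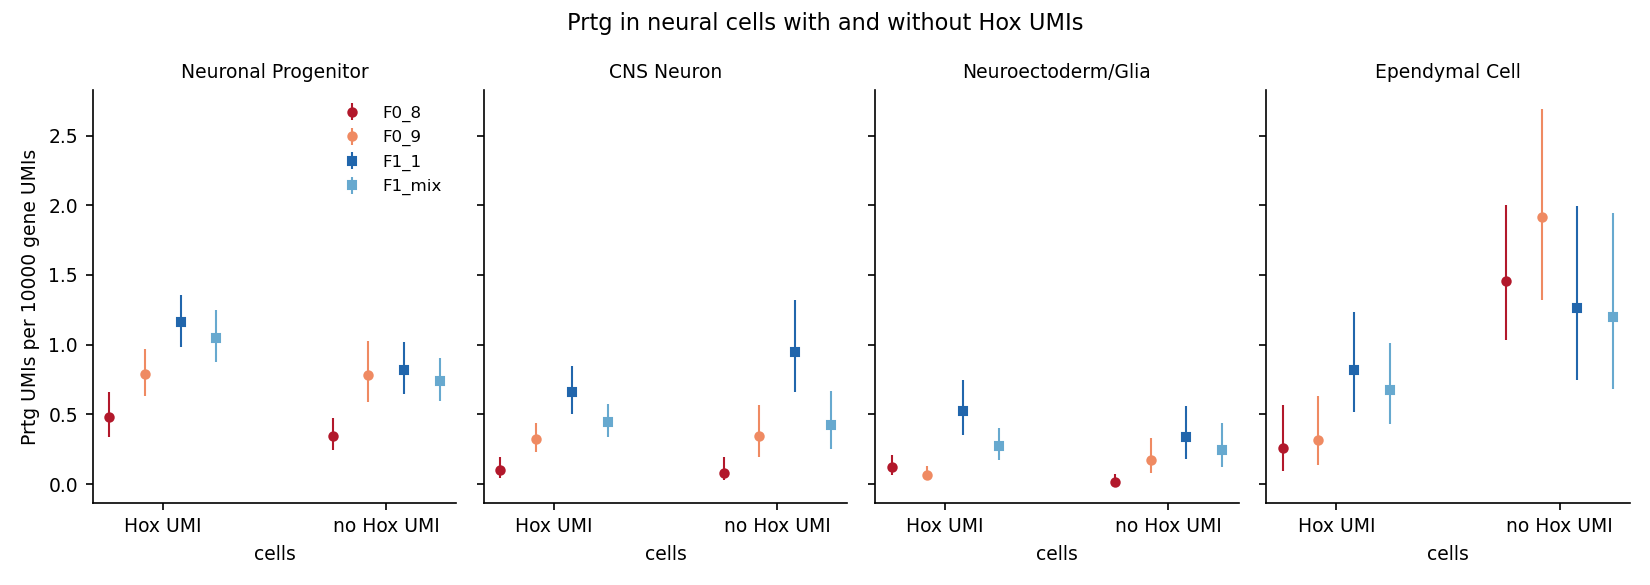
Prtg UMIs per 10000 gene UMIs (y axis) in 4 neural types, in cells with and without a Hox UMI (x axis), by suspension, with exact Poisson 95% intervals. Founders (circles) lie below F1 (squares) in the Hox cells of all 4 types and above them in the ependymal cells without Hox, and in both ependymal strata the intervals of all 4 suspensions overlap.

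In Mesodermal Progenitor the difference was present with and without genes of the somites. Mesodermal Progenitor cells with a UMI of a somite gene gave 0.248 and 0.428 in the founders (F0_8, then F0_9) and 0.824 and 0.558 in F1_1 and F1_mix, and those without gave 0.134, 0.270, 0.787 and 0.403. Both founders lay below both F1 suspensions in either stratum. The 91 cells of this type without a Hox UMI gave 0.192, 0.130, 0.653 and 0.182, so that F0_8 and F1_mix lay together and F1_1 stood apart. Cells with a gene of the growing tail numbered 7 and held 6 Prtg UMIs, too few to compare. In Myoblast/Cardiomyocyte, cells with a somite gene had F0_9 (0.344) above F1_mix (0.320), with F0_8 the lowest and F1_1 (0.496) the highest. Those without a somite gene gave 0.115 and 0.398 in F0_8 and F0_9, against 0.515 and 0.468 in F1_1 and F1_mix, with both founders below. There, cells with a Hox UMI gave 0.194, 0.336, 0.573 and 0.403 with the founders first, and cells without one gave 0 (upper 95% limit 0.152), 0.484, 0.316 and 0.320, so that F0_9 was the highest there. These mesodermal strata were chosen after the levels by type had been seen.

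The F1_mix suspension, made of cells of more than 1 embryo, held different Prtg levels in cells with and without a Y-linked UMI. Its deep-type cells of at least 5000 gene UMIs were split by a UMI of a Y-linked gene, a division chosen after the data had been seen. The 511 cells with such a UMI gave 0.394 Prtg UMIs per 10000 (95% interval 0.352 to 0.440) and the 544 cells without gave 0.601 (0.551 to 0.655), at like median depths of 14817 and 15049. In Neuronal Progenitor the levels were 0.559 (0.424 to 0.722) with and 1.13 (0.968 to 1.32) without, and in Gut Mesenchyme/Amniotic Mesoderm 0.253 and 0.690. The direction was the opposite in Myoblast/Cardiomyocyte (0.434 with, 0.336 without) and Epithelial Cell (0.598 and 0.434), where the intervals overlapped. The sources used here do not say which cells came from which embryo, and cells without a Y-linked UMI can include cells that carry a Y chromosome. The classes differed in makeup by type, with 71 Neuronal Progenitor cells with and 95 without such a UMI. The intervals cover counting error only and are too narrow where single cells hold many UMIs, up to 20 in Neuronal Progenitor of F1_mix. The split was not made in the other suspensions.

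**Figure D4:**
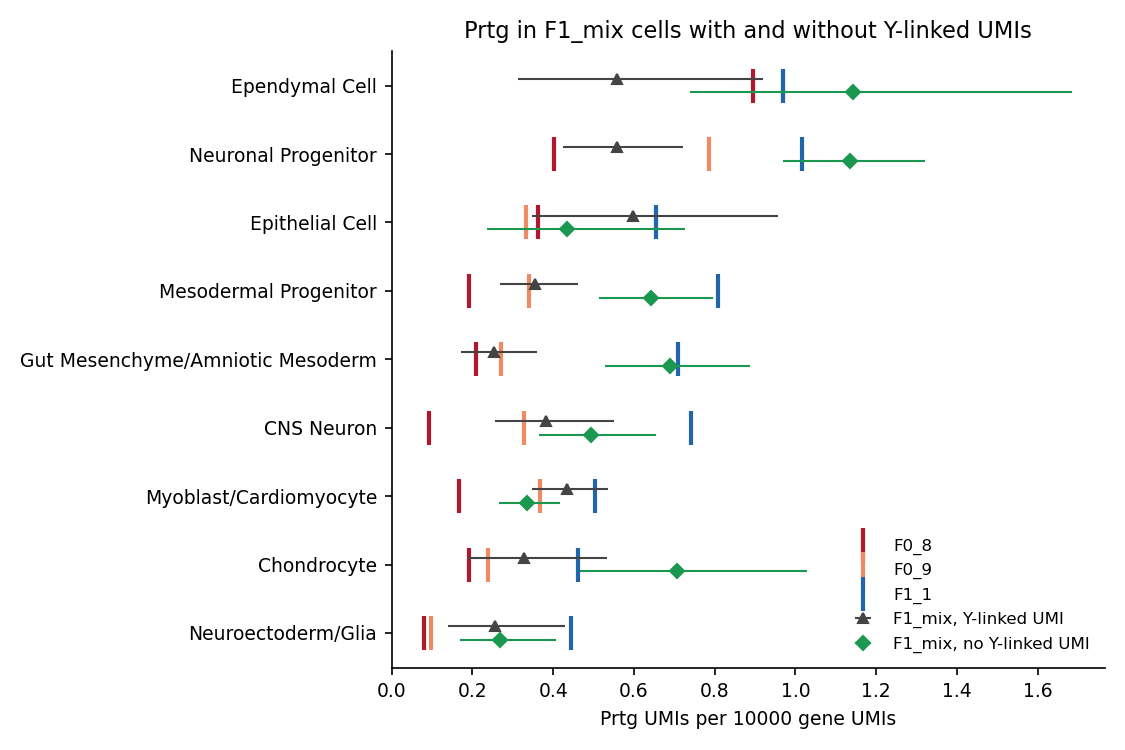
Prtg UMIs per 10000 gene UMIs (x axis) in 9 deep types (y axis) in F1_mix cells of at least 5000 gene UMIs with (triangles) and without (diamonds) a Y-linked UMI, with exact Poisson 95% intervals. Vertical ticks give the level over all cells of F0_8, F0_9 and F1_1. In Neuronal Progenitor the 2 classes stand at 0.559 and 1.13, the first below F0_9 and the second above F1_1.

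Of the other members of the Dcc family, Igdcc3 fell in founders and the remaining 3 gave no call by edgeR's main settings. For genes other than Prtg, counts were summed by type and suspension and the 2 founders were compared with the 2 F1 suspensions by edgeR's quasi-likelihood test, with Benjamini-Hochberg adjustment over all genes of a type. Over all types, 0.492% of the 99241 gene and type pairs were called higher in founders and 0.260% lower. The 4 family members gave 3 lower and 0 higher calls in 46 pairs, all 3 of Igdcc3, with a median log2 difference of -0.01, while the medians of all genes lay between -0.01 and 0.01 in every type.

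In Mesodermal Progenitor, Igdcc3 stood at 0.0916 and 0.195 in F0_8 and F0_9 and, in F1_1 and F1_mix, 0.663 and 0.410 per 10000. Its fitted log2 difference, founders minus F1, was -1.96 ± 0.30 (SE), with an adjusted p of 0.00571 by edgeR. In Gut Mesenchyme/Amniotic Mesoderm it stood at 0.146, 0.151, 0.501 and 0.505 in the same order of suspensions (log2 difference -1.78 ± 0.17, edgeR adjusted p = 0.00189). In Neuronal Progenitor it stood at 0.866, 1.14, 1.88 and 1.57 (-0.82 ± 0.14, edgeR adjusted p = 0.0477). Both founders lay below both F1 suspensions for Igdcc3 in 7 of 9 deep types, the exceptions being CNS Neuron and Ependymal Cell, and in Myoblast/Cardiomyocyte a log2 difference of -1.79 did not pass (edgeR adjusted p = 0.0774), although it did by DESeq2 (adjusted p = 0.00188) and by edgeR without F0_8 or without F0_9. Dcc, Neo1 and Igdcc4 had both founders below both F1 suspensions in 1, 0 and 0 of 9 deep types and above them in 3, 2 and 3, where 19.8% of all gene and type pairs had both founders below and 20.8% above. Without F0_8 the Igdcc3 calls in Mesodermal Progenitor and Neuronal Progenitor were lost, and without F1_1 that in Neuronal Progenitor was. The call in Gut Mesenchyme/Amniotic Mesoderm was kept without any 1 suspension. Without F0_9, and likewise without F1_mix, the Igdcc3 calls were kept. Without F1_mix, Dcc moved both ways. Its log2 difference was 0.62 in Gut Mesenchyme/Amniotic Mesoderm, 0.43 in Neuronal Progenitor, -0.14 in CNS Neuron and -0.76 in Midgut. Dcc was also called lower in Midgut, a shallow type, by DESeq2 (log2 difference -0.92) and by edgeR with median-of-ratios size factors (-0.93). Without the count filter edgeR called Dcc higher in Ependymal Cell, Gut Mesenchyme/Amniotic Mesoderm and Hepatocyte and lower in Midgut, so its direction differed between types.

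Ligands and partners gave 3 calls in 96 pairs, all higher in founders, of 2 netrin receptors, with a median log2 difference of 0.01. Unc5c rose in CNS Neuron, from 0.527 in F1_1 and 0.721 in F1_mix to 1.49 in F0_8 and 1.19 in F0_9 (log2 difference 1.06 ± 0.17, edgeR adjusted p = 0.0206). Unc5d rose in Gut Mesenchyme/Amniotic Mesoderm (1.24 ± 0.20, edgeR adjusted p = 0.0146) and in Mesodermal Progenitor (1.05 ± 0.20, edgeR adjusted p = 0.0188). Dnajb11, the reported ligand of protogenin, had log2 differences between -0.19 and 0.21 in the 10 types where it was tested, and none passed the test. Without F0_8 all 3 calls were lost and 1 other was made, of Unc5d in Neuroectoderm/Glia, and without F0_9, as by DESeq2, the call of Unc5d in Mesodermal Progenitor was lost.

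Genes of the early embryo, among them genes repressed by let-7 or acting with Lin28, moved down in founders where they were called. The list of 13 genes gave 4 lower and 0 higher calls in 124 pairs, with a median log2 difference of -0.26. Trim71, a ubiquitin ligase and RNA-binding protein, fell in Mesodermal Progenitor (-1.27 ± 0.25, edgeR adjusted p = 0.0299), where it stood at 0.0916 and 0.139 in F0_8 and F0_9, against 0.288 and 0.256 in F1_1 and F1_mix. Hmga2, a chromatin protein, fell in Gut Mesenchyme/Amniotic Mesoderm (-0.39 ± 0.07, edgeR adjusted p = 0.0165) and in Mesodermal Progenitor (-0.30 ± 0.07, edgeR adjusted p = 0.0431). Lin28b, which blocks let-7 maturation, fell in Midgut (-2.37 ± 0.65, edgeR adjusted p = 0.0230), a shallow type. Trim71 had both founders below both F1 suspensions in 8 of 9 deep types, Igf2bp1 and Hmga1 in 7 each, and Lin28b in 6, against 19.8% of all gene and type pairs. Lin28a also had both founders below in 6. Of the members that moved otherwise, Tet1 had both founders below in 1 type and above in 4, Nr6a1 below in 2 and above in 3, and Dnmt3b below in 2 and above in 2. Without F0_8 only that of Hmga2 in Gut Mesenchyme/Amniotic Mesoderm was kept of the 4 calls, and without F0_9 only that of Trim71. Without F1_mix the calls of Lin28b in Midgut and of Hmga2 in Mesodermal Progenitor were lost, and DESeq2 kept only Hmga2 in Gut Mesenchyme/Amniotic Mesoderm.

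Nuclear factor I genes, transcription factors that come on as progenitors mature, moved the other way. The list of 7 later-onset genes gave 13 higher and 0 lower calls in 75 pairs, all of Nfia, Nfib and Nfix, with a median log2 difference of 0.44. In Neuronal Progenitor, Nfib stood at 6.99 and 6.79 in the founders (F0_8, then F0_9) and 3.13 and 3.06 in F1_1 and F1_mix (1.12 ± 0.06, edgeR adjusted p = 0.000285). Nfix stood there at 0.678, 0.501, 0.136 and 0.120 in the same order (2.16 ± 0.22, edgeR adjusted p = 0.00770). In CNS Neuron, Nfia stood at 5.37, 3.62, 0.893 and 1.47 (1.89 ± 0.21, edgeR adjusted p = 0.00334). Both founders lay above both F1 suspensions in 9 of 9 deep types for Nfix, 8 for Nfib and 7 for Nfia, against 20.8% of all gene and type pairs. Of the other members, Zbtb20 had both founders above in 6 types and Ptprz1 in 4, with 0 below, and Fabp7 and Slc1a3 each had them above in 1 and below in 2. In Ependymal Cell, where Prtg overlapped, Nfia overlapped (7.15, 5.86, 6.58 and 7.14), whereas both founders were above for Nfib (4.72, 3.76, 3.26 and 2.83) and Nfix (0.285, 0.236, 0.118 and 0.0820). In Neuroectoderm/Glia, with the widest Prtg gap, Nfia overlapped too (2.37, 0.614, 0.808 and 0.926). Without F0_8, 4 of the 13 calls were kept, among them Nfib and Nfix in Neuronal Progenitor, and 9 were lost, among them Nfia in CNS Neuron. Without any other 1 suspension 11 or 12 were kept.

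**Figure D5:**
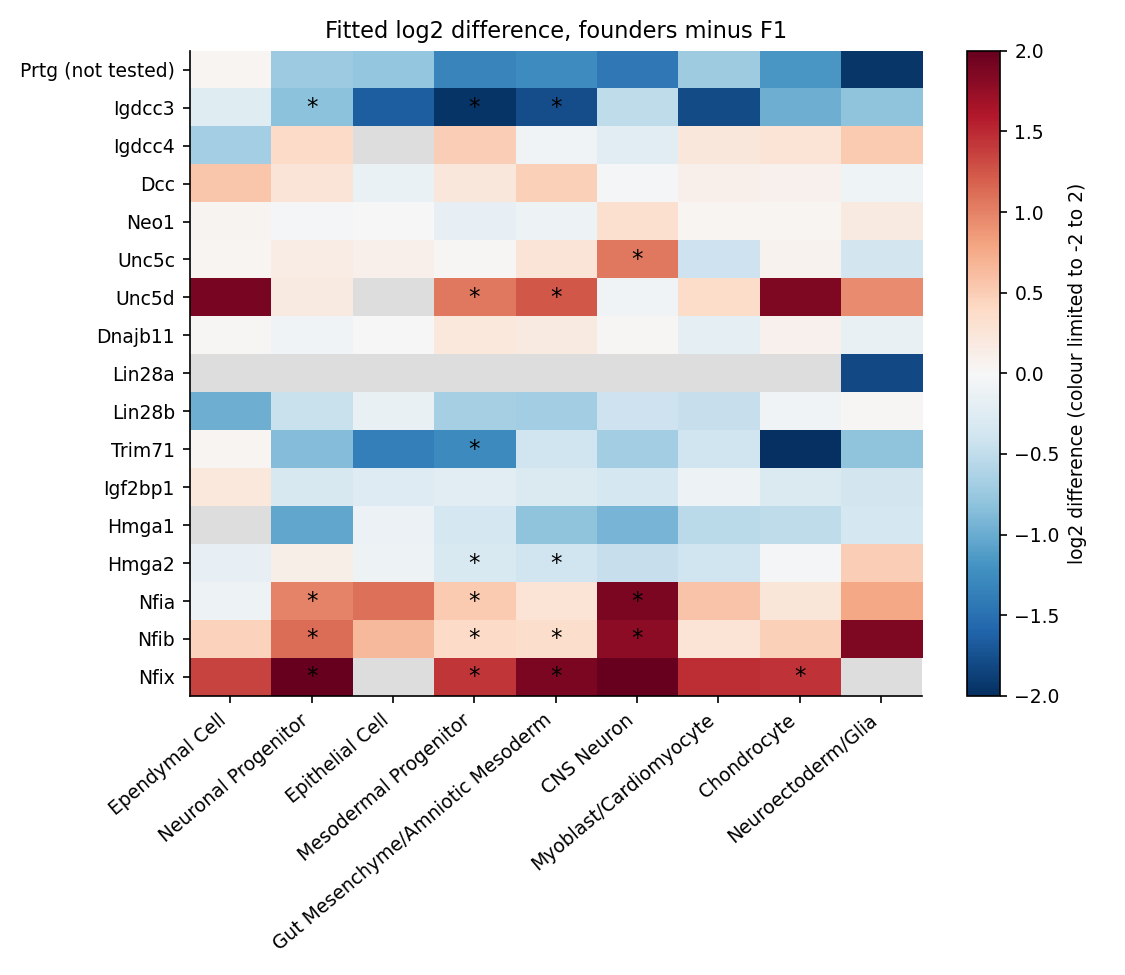
Fitted log2 difference, founders minus F1, of Prtg and 16 listed genes (rows) in 9 deep types (columns, ordered by mean Prtg level), with blue for lower and red for higher in founders, grey for genes under the count filter and asterisks for an edgeR adjusted p under 0.05. Prtg was not tested. Prtg and Igdcc3 are blue in nearly all types and Nfib and Nfix are red wherever they could be tested.

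In F1_mix the cells with a Y-linked UMI, which were lower for Prtg, were also lower for Igdcc3 (0.583 against 0.770 per 10000, intervals apart). They were higher for Nfia (3.65 against 2.92) and Nfib (3.48 against 2.78), and also for Hmga2 (6.10 against 5.66), which was called lower in founders. Nfix (0.122 against 0.0958), Lin28b (0.643 against 0.700) and Trim71 (0.224 against 0.265) had overlapping intervals. These levels were pooled over deep types, and the classes differed in makeup. Gut Mesenchyme/Amniotic Mesoderm gave 83 cells with and 61 without a Y-linked UMI, and Neuronal Progenitor 71 and 95. Whether these genes differed within a type was not tested.

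Genes with a pattern like that of Prtg were ranked by Pearson's r of log2 levels over 36 units (9 deep types in 4 suspensions), which share embryos and 1 library, among 11608 genes. The first 10 were Metrn (r = 0.78), Tmem47 (0.74), Prom1 (0.72), Galc (0.70), Shroom3 (0.70), E2f5 (0.69), Gpd2 (0.68), Lpar6 (0.67), H2-K1 (0.67) and Crb2 (0.67), against a median of 0.04 over all genes. Among them, Prom1 (prominin) and Crb2 are proteins of the apical membrane of neuroepithelium, Shroom3 shapes apical cell surfaces, and Metrn (meteorin) is a secreted protein of neural progenitors. After each type's mean was subtracted, so that only the differences between suspensions remained, the first 5 were Pkm (0.83), Gapdh (0.80), Rps3 (0.79), Mapk12 and Apoe, against a median of -0.03. Pkm and Gapdh encode glycolytic enzymes, and Rps3 is a ribosomal protein. By this second measure Igdcc3 (0.75) ranked 10 and Nfix (-0.79) 11607 of 11608 genes. Because Prtg was chosen on the contrast of founders with F1, this measure favours genes of the same contrast at either end. The ranks are therefore no evidence beyond that contrast.

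Pkm stood below both F1 suspensions in both founders in each of the 9 deep types, a count that its choice by likeness to Prtg favours, where 19.8% of all gene and type pairs had this arrangement. In Neuronal Progenitor it was 8.21 and 8.11 in F0_8 and F0_9 and, in F1_1 and F1_mix, 12.6 and 10.9. Metrn stood there at 1.01, 1.36, 1.95 and 1.76, in the same order of suspensions as Prtg. In Ependymal Cell, Metrn gave 2.26, 2.89, 2.98 and 2.13, an overlap like that of Prtg in the same type. Metrn was named as the gene most like Prtg over these same units, a choice that favours both of these matches.

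Because several listed genes are known targets of the let-7 microRNAs, annotated 3′ UTRs were searched for the letters CTACCTC, the complement of the let-7 seed, on the transcript strand. The RefSeq mouse set held 11 mature sequences with the seed GAGGUAG, of which 1 is shown with its seed (bases 2 to 8) in capitals.
mmu-let-7a-5p: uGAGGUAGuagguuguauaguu
The Prtg 3′ UTR of 4989 bases (GENCODE vM1 transcript) held 2 matches and that of Igdcc3 also 2, shown in capitals within their flanks because these were the family members lower in founders. Igdcc4, which had both founders below in 0 deep types and above in 3, held 1 match. Positions are counted from the first base of the 3′ UTR.
Prtg, position 271: ctgctgaatagCTACCTCagtttgctgtg
Prtg, position 1701: tcctgtttataCTACCTCctttttaaagt
Igdcc3, position 388: actctcagcacCTACCTCagccggaatga
Igdcc3, position 468: cgaaagcactcCTACCTCaagccccttaa
Of 19915 genes with an annotated 3′ UTR, 8.20% held 1 or more match and 0.919% held 2 or more. Among 740 genes with a 3′ UTR near that of Prtg in length, 26.8% and 5% did. The letters occurred in 11 of the 13 early-embryonic genes, which include genes listed for that reason, in 2 of the other 4 family members, in 3 of 11 ligands and partners with a 3′ UTR and in 1 of 7 later-onset genes. A match is a description of letters, and let-7 itself, a short RNA without a poly(A) tail, was not measured by this assay.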

How the data were processed

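Gene counts were deposited by the authors as UMI counts from Cell Ranger (7.2.0 per the file headers, while the methods text names another release) against GRCm38/mm10 with the EGFP sequence added, together with a cell table from Seurat. The sources used here do not state whether reads in introns were counted. From that table the suspension, the cell type, the total count and the mitochondrial percentage, a percent deposited by the authors, were read, and 18 other columns were not used. Counts were used as deposited, without correction for free RNA, and doublets had been removed by the authors.

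Suspensions are not separate GEO samples and were grouped from the series description. Levels are UMIs per 10000 gene UMIs with exact Poisson 95% intervals, and shares carry Clopper-Pearson 95% intervals. Both cover counting error only. Types needed 20 cells per suspension. Counts summed by type and suspension were tested with edgeR 4.0.16 (TMM, filterByExpr, adjusted p under 0.05 within a type), with DESeq2 1.42.0 (R 4.3.3) as an alternative. Each group holds 2 suspensions, so the tests measure the spread between single embryos or mixtures. The edgeR step was first run on simulated counts with known changes. Intervals, thinning and correlations (log2 with an offset of 0.1) used Python 3.11.15, numpy 2.4.6 and scipy 1.17.1. Gene positions came from RefSeq (GRCm38.p6) and 3′ UTRs from GENCODE vM1, without genome coordinates. Named genes were Prtg, every listed gene called in a type, the 10 most like Prtg and the 5 most like it within types, and a few others were named after their values had been seen. The gene and the lists were chosen with earlier results of these data known. The planned count was of types with founders above F1, and its counterpart, founders below, is given with it. A planned split of the neural cells and the marker set of 1 type are not reported here.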

Additional observations from a re-analysis of the deposited data

Results flagged for a closer look

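In Ependymal Cell the difference in Prtg between founders and F1 suspensions had opposite signs in 2 strata. It was -1.37 on the log2 scale in cells with a Hox UMI and 0.46 in cells without one, with every founder on one side of every F1 suspension in each. The Poisson intervals of all 4 suspensions overlapped in each stratum. The difference between the strata was not tested.

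Prtg was also counted in barcodes outside the comparisons. Barcodes outside the suspensions held 743 Prtg UMIs at 100 to 300 gene UMIs (0.970 per 10000) and 123 at 1 to 100 gene UMIs (0.415 per 10000). A further 328 deposited barcodes without a cell type held 110 Prtg UMIs (0.622 per 10000).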

How the results depend on the processing

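The median log2 difference of Prtg over the deep types (-1.15) kept its sign under every alternative run and moved by less than the pooled SD of 0.41. Types with both founders lower numbered 10 of 13 and 0 were higher. Lower types numbered 6 of 10 for shares at 2000 UMIs, where Epithelial Cell turned to 0.38 on the log2 scale and Ependymal Cell, which overlapped by level, had both founders lower (-0.91). Leaving out 1 suspension gave 10 to 13 lower and 0 to 2 higher types, the 2 (Ependymal Cell and Endodermal Progenitor) without F1_1. Removing a suspension cannot undo a lack of overlap, so the lower types could not number under 10 and this count does not measure robustness. Of 106 values by type under alternatives, 98 were lower in founders and 8 higher. Of these values, 14 moved by more than the SD of their own type and 1 reversed. In CNS Neuron the log2 difference went from -1.49 to -2.68 without F0_9.

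Without a count filter the calls were 3 higher and 9 lower in the Dcc family, 6 and 2 in ligands and partners, 14 lower in early-embryonic and 25 higher in later-onset genes. DESeq2 gave 5 lower in the Dcc family and 2 lower in early-embryonic genes. Leaving out 1 suspension gave 0 to 2 higher and 3 to 6 lower calls in the Dcc family, 1 to 4 higher and 0 to 1 lower in ligands and partners, 1 to 6 lower in early-embryonic and 5 to 18 higher in later-onset genes. Of the 10 genes most like Prtg, 5 were shared with Spearman's rho, 2 with founders alone and 3 with F1 alone. The cause was not tested.

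No paired analysis was possible because the suspensions carry no shared replicate numbers. Few Prtg UMIs per suspension limit the shallow types and, among deep types, CNS Neuron in F0_8 (13), Neuroectoderm/Glia (15 to 44), Chondrocyte (18 to 43) and Epithelial Cell (18 to 59).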
